A study of Homo sapiens with 21 samples.

Results

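The transcription factor ATF4 and the amino acid response genes are described here in HMLE cells before and during treatment with TGFβ. The set held 37 genes chosen by symbol, of 23201 gene symbols listed in all, and fell into 5 roles. These were 6 transcription factors and their partners, 6 stress effectors and secreted factors, 11 amino acid and one-carbon enzymes, 8 amino acid transporters and 6 genes of tRNA charging and export. All 37 genes were listed and all 37 passed the filter on low values, a mean normalised read count of at least 10 over the libraries, with 13343 genes tested in all.

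HMLE is an established cell line, made by immortalizing human mammary epithelial cells, and TGFβ is a cytokine that induces epithelial-mesenchymal transition (EMT) in such cells. RNA was sequenced in untreated cells (d0) and on days 1, 4, 7, 10, 15 and 20 of TGFβ treatment (d1 to d20), with 3 libraries at each of the 7 timepoints and 21 in all. No genotype other than that of the line is given for the cells, and wells were seeded at 1 starting density. The study calls the 3 libraries of a timepoint biological triplicates, and no label ties libraries of different timepoints to each other. No untreated library of a later day was used here, so that days of TGFβ and days in culture cannot be told apart.

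Library totals lay between 18847917 and 22667754 reads. All 5 markers of basal mammary epithelium, among them KRT5 and KRT14, were read in every library. The luminal markers KRT8, KRT18, KRT19 and EPCAM were also read, with up to 12238, 8454, 631 and 2429 reads in a library. The endothelial marker CDH5 and the blood cell markers PTPRC and CD3E had at most 3 reads in each library. The remaining endothelial markers PECAM1 and VWF reached 51 and 13 reads, and the remaining blood cell marker CD68 reached 840. The mesenchymal gene FN1 had a mean of 4243 at d0 and 155910 at d1. In table order, the third d7 library stood apart, and the comparison of d7 with d0 was also fitted without it. In RNA from whole wells, fewer cells of a type and less RNA per cell cannot be told apart.

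ATF4 is the main effector of the integrated stress response and of the amino acid response. When amino acids run short or proteins misfold, kinases phosphorylate the initiation factor eIF2, general translation slows, and the ATF4 mRNA is translated more. ATF4 protein then pairs with C/EBP proteins at composite sites in target genes, which encode amino acid transporters, enzymes that make serine, glycine and asparagine, tRNA synthetases and feedback regulators. Because much of this control is on translation, reads of the ATF4 mRNA are not a measure of its protein.

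Promoter sequences of 250 bases before and 50 bases after the annotated start were available for 30 of the 37 genes from RefSeq (GRCh38.p14), 5 of them under their newer symbols. They were searched on both strands for TGATGNAA, the core of a composite ATF4 and C/EBP site, where N is any base. The motif was in at least 1 window of 10 of the 30 genes (33.3%), against 1217 of the 27305 symbols in the table (4.46%). Counted by window it was in 10 of 47 windows of these genes (21.3%) and in 3.62% of all 35116 windows. The 10 genes were CEBPG, CHAC1, ASNS, SLC3A2, SLC7A1, SLC1A4, SLC1A5, AARS, GARS and NARS. The match is a description of the letters and not a measure of binding, and no match says only that the letters are not in these 300 bases. The stretches of 3 genes from the main roles, in which the motif lies before the only or first annotated start, are printed 5′ to 3′ on the strand of the gene, with the motif in capitals.
ASNS: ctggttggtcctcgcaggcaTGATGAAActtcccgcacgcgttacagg
CHAC1: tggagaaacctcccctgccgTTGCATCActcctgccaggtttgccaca
AARS: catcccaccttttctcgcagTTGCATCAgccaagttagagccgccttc
The ASNS stretch is chr7:97872449-97872496 on the minus strand, with the motif read along the gene at -68 to -61, counted from 0 at the annotated start. The CHAC1 stretch is chr15:40953242-40953289 on the plus strand, with the motif on the opposite strand at -209 to -202. The AARS stretch is chr16:70289666-70289713 on the minus strand, with the motif on the opposite strand at -187 to -180. The deposited values were made with another build, hg19, so that these coordinates belong to the sequences only.

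Over the 7 timepoints the genes did not follow 1 course. The ratio of the highest to the lowest timepoint mean ran from 1.11 to 6.12 among the 37 genes, with a median of 1.89 against 1.77 for all genes tested, and it reached 2 in 15 of them (40.5%) against 39.5% of all genes. The highest mean fell at d15 in 17 genes, at d0 in 8 and at d20 in 8, where 22.9%, 19.3% and 9.05% of all genes had theirs. The lowest mean fell at d7 in 17 genes, where 6.6% of all genes had theirs, at d10 in 7 (17.6% of all genes), at d4 in 6 (10.3%), at d0 in 4 (22.9%), at d15 in 2 (25.9%) and at d20 in 1 (9.56%). Without the third d7 library, 21 genes had their lowest mean at d7 and 16 their highest at d15.

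**Figure D1:**
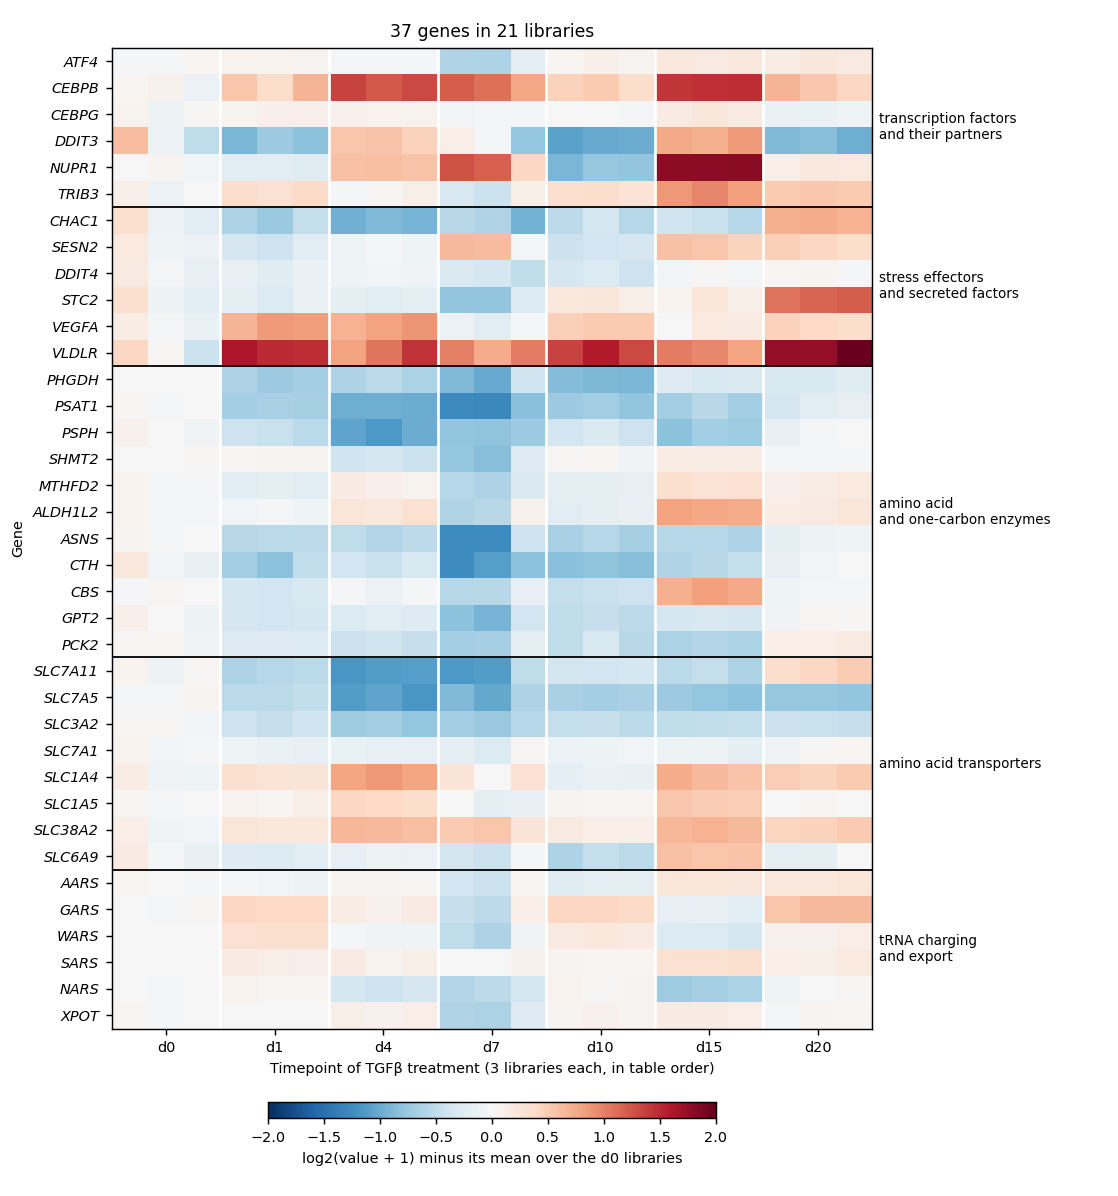
Heatmap of the 37 genes (rows, grouped by role) in the 21 libraries (columns, 3 per timepoint in table order), coloured by log2(value + 1) minus the mean of that gene over the d0 libraries. Enzymes and transporters such as PSAT1 and SLC7A5 are blue on the treated days, NUPR1 is darkest red at d15, and the third d7 column is paler than the other d7 columns in most rows.

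Each treated day was compared with d0 by limma on log2(value + 1), with Benjamini-Hochberg adjustment over all genes tested, and a gene was called at an adjusted p under 0.05. A second rule also asked for a 2-fold change. The 6 comparisons share the same 3 untreated libraries. With these calls, 3 genes were higher on all 6 treated days (CEBPB, VLDLR and SLC38A2) and 4 were lower on all 6 (PHGDH, PSAT1, SLC7A5 and SLC3A2), which is 8.11% and 10.8% of the 37 against 14.3% and 8.26% of all genes tested. Another 18 (48.6%) were higher on some day and lower on another, against 28.7% of all genes. When libraries were rescaled to 1 total or quantile normalised, CEBPB, VLDLR and the 4 lower genes kept their calls on all 6 days, but SLC38A2 lost its calls at d1 and d10, where values turned to -0.0030 with quantile normalization at d1 and to -0.074 and -0.12 with the 2 scalings at d10. A 2-fold change on at least 1 day was called in 10 genes (27.0%), against 30.4% of all genes. It was upward in CEBPB, NUPR1, STC2 and VLDLR (10.8% against 16.5%) and downward in DDIT3, PSAT1, PSPH, CTH, SLC7A11 and SLC7A5 (16.2% against 15.4%).

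On the first day, 18 of the 37 genes (48.6%) were lower than in untreated cells and 9 (24.3%) were higher, against 28.5% and 31.3% of all genes tested. The lower genes included 9 of the 11 enzymes with PHGDH, PSAT1 and ASNS among them, and the transporters SLC7A11, SLC7A5 and SLC3A2. VLDLR was the only gene higher by 2-fold, a change called in 6.47% of all genes. None was lower by 2-fold with limma, edgeR or DESeq2, against 3.87% of all genes, and none passed that fold at any p. The median log2 fold change was -0.175 over the 37 genes and 0.001 over all genes.

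At d4, 14 of the 37 genes (37.8%) were lower and 10 (27.0%) were higher, against 35.3% and 36.9% of all genes. CEBPB and VLDLR were higher by 2-fold, against 9.68% of all genes, and PSPH, SLC7A11 and SLC7A5 were lower by 2-fold, against 5.03%. The median was -0.065 over the 37 genes and 0.007 over all genes.

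At d7 the set was lowest, with 27 of the 37 genes (73.0%) lower and 6 (16.2%) higher, against 32.6% and 34.6% of all genes. All 11 enzymes, 6 of the 8 transporters, 5 of the 6 genes of tRNA charging and export and ATF4 itself were among the lower ones. By 2-fold, CEBPB was higher and PSAT1 and CTH were lower, against 8.79% and 2.93% of all genes. The median was -0.40 over the 37 genes and 0.004 over all genes.

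The d7 values rest on libraries that differed. The third d7 library lay above the other pair in 28 of the 37 genes, below it in 7 and between in 2. The root mean square log2 difference between 2 libraries of a timepoint over the 37 genes was 0.057 to 0.30 at the other timepoints, 0.098 between the first and second d7 libraries, and 0.45 and 0.46 between each of these and the third. For ASNS the third library read 3705 and the others 2069 and 2064. Without the third library, 28 genes were lower and 5 higher, against 34.4% and 36.8% of all genes, the median was -0.56, and 4 were lower and 2 higher by 2-fold, against 3.32% and 9.92%. In 35 of the 37 genes the call at d7 was the same without it, while VEGFA became lower (-0.17, adjusted p = 0.00881) and SLC1A4 was no longer called (0.135, adjusted p = 0.0921). Fewer genes were lower in other fits, 23 without the first d7 library and 23 without the second, with 5 and 6 higher. With only the d7 and d0 libraries compared, 20 were lower and 4 higher. The shares of all genes in these 3 fits are not reported here. The summed value of 15 cell cycle genes was 68386 in the third d7 library and 51390.0 and 52983 in the others, and that of the 5 basal markers was 299172 against 534135 and 502206. Their part in the d7 values was not tested.

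**Figure D2:**
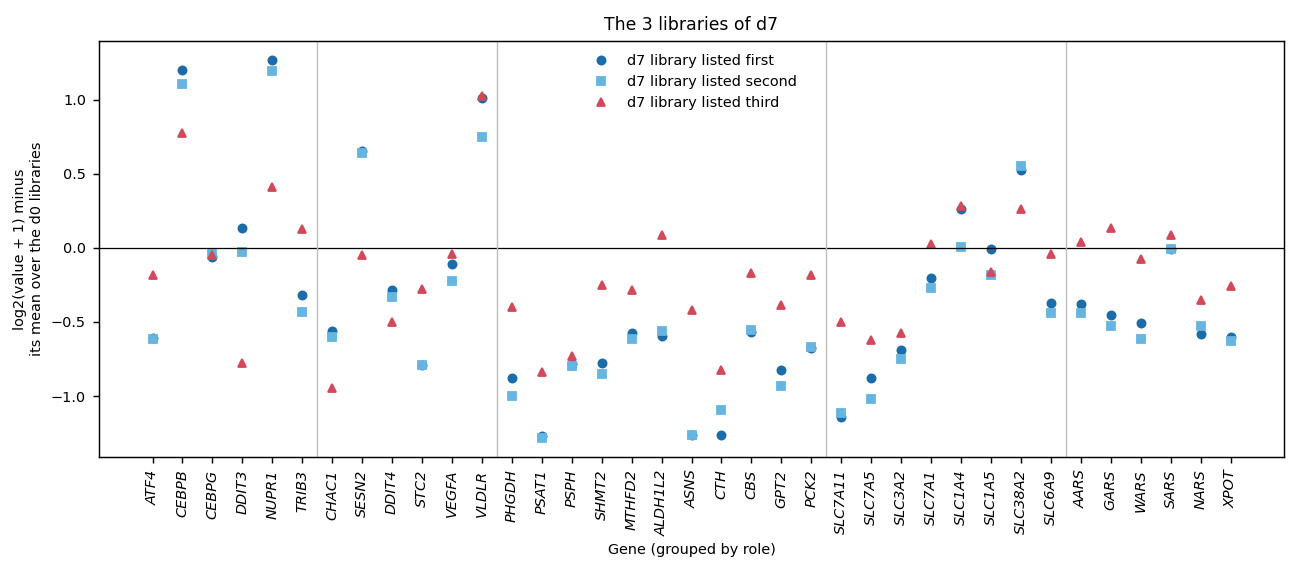
The 3 libraries of d7 for each of the 37 genes (x axis, grouped by role), as log2(value + 1) minus the mean over the d0 libraries (y axis). The red triangles of the third library sit above the blue marks of the other pair in 28 genes, and below them in genes such as NUPR1, DDIT3 and CHAC1.

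At d10, 19 of the 37 genes (51.4%) were lower and 7 (18.9%) higher, against 30.7% and 37% of all genes. VLDLR was higher by 2-fold, against 6.94%, and DDIT3 was lower by 2-fold, against 7.34%. The median was -0.19 over the 37 genes and 0.031 over all genes.

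At d15, 18 of the 37 genes (48.6%) were higher and 14 (37.8%) lower, against 39.2% and 37.3% of all genes. All 6 transcription factors and partners were among the higher ones, while 7 of the 11 enzymes were lower. CEBPB and NUPR1 were higher by 2-fold, against 11.7% of all genes, and none was lower by 2-fold with limma at any p, with edgeR or with DESeq2, against 8.66%. The median was 0.15 over the 37 genes and 0.015 over all genes.

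At d20, there were 15 of the 37 genes higher (40.5%) and 6 lower (16.2%), against 32.5% and 30.2% of all genes. STC2 and VLDLR were higher by 2-fold, against 7.51% of all genes, and none was lower by 2-fold with limma at any p or with DESeq2, and 1 with edgeR, against 4.72%. The median was 0.10 over the 37 genes and close to 0 over all genes.

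The split between higher and lower calls moved with the scaling. Rescaling each library to 1 total moved the median of all genes by -0.14 to -0.20, and the numbers of genes higher and lower became 3 and 26 at d1, 7 and 22 at d4, then 4 and 30 at d7, 3 and 29 at d10, then 14 and 16 at d15, and 9 and 17 at d20. With quantile normalization they were 5 and 26, 8 and 18, 5 and 29, 3 and 28, 16 and 16, and 11 and 12. Every call of a lower gene was also made with both other scalings, whereas the calls of higher genes made with all 3 numbered 3 of 9 at d1, 7 of 10 at d4, 4 of 6 at d7, 3 of 7 at d10, 14 of 18 at d15 and 9 of 15 at d20. Taken relative to the median of all genes, the median of the 37 genes at d7 was -0.404 as deposited, -0.405 after rescaling and -0.415 after quantile normalization, and at d20 it was 0.102, 0.101 and 0.013.

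Between consecutive timepoints, 2-fold changes were most numerous from d10 to d15, with 5 genes. All genes tested also had their largest shares in this step, 12% higher and 10.2% lower. From d1 to d4, DDIT3 was higher by 2-fold, against 4.19% of all genes, and none was lower, against 1.98%. From d4 to d7, none was higher or lower by 2-fold, against 2.27% and 1.51%. From d7 to d10, none was higher, against 3.63%, and NUPR1 was lower, against 9.09%, joined by others to make 3 when the third d7 library was left out. From d10 to d15, CEBPB, DDIT3, NUPR1, CBS and SLC6A9 were higher, against 12% of all genes, and none was lower, against 10.2%. From d15 to d20, CHAC1 and STC2 were higher, against 7.55%, and DDIT3 and NUPR1 were lower, against 7.43%. For each count of 0 given here, no gene of the set passed 2-fold with limma at any p, and edgeR and DESeq2 also called 0.

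**Figure D3:**
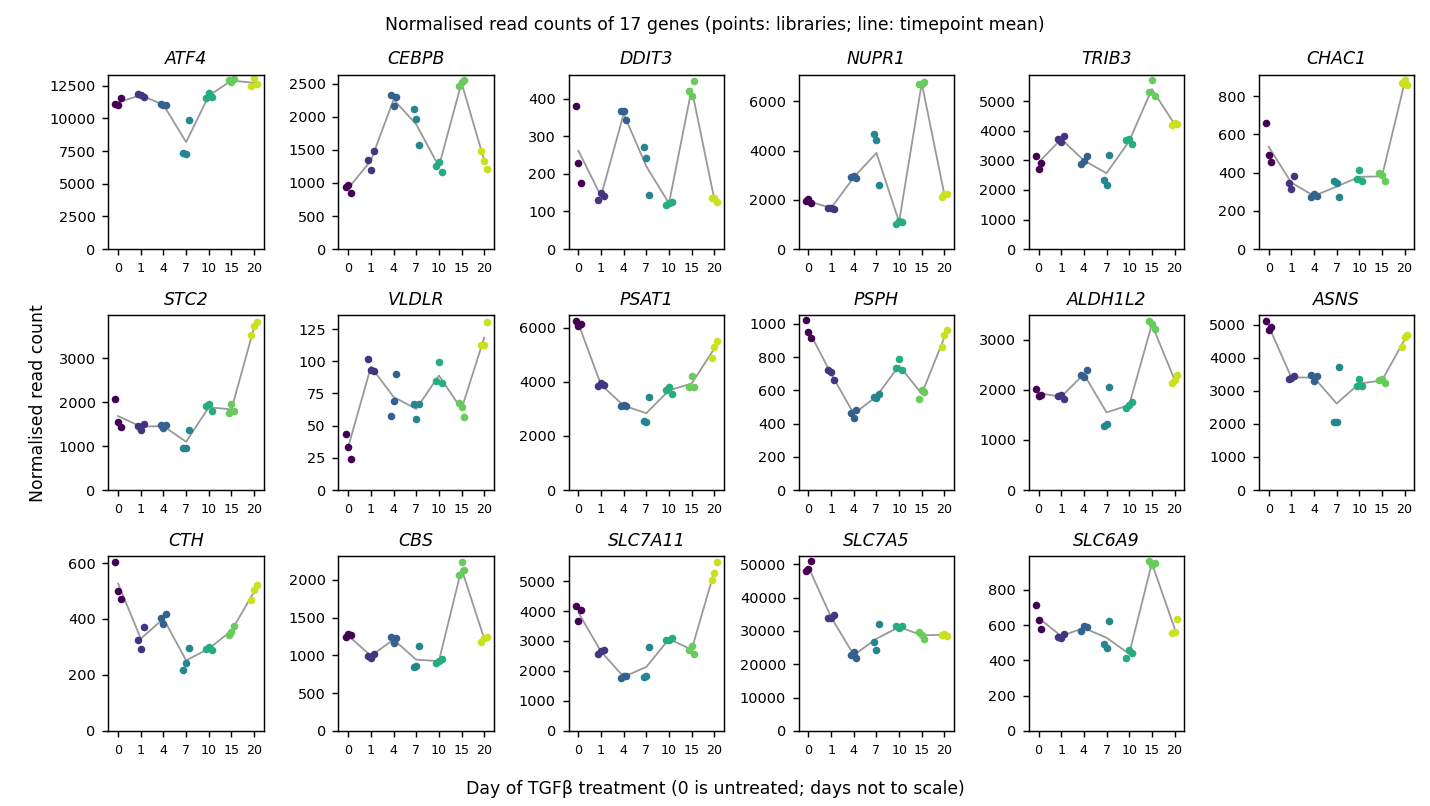
Normalised read counts (y axis, from 0, scaled per gene) of 17 genes by day of TGFβ treatment (x axis, not to scale), with each library as a point and the timepoint mean as a line. NUPR1, CBS and SLC6A9 peak at d15, STC2, CHAC1 and SLC7A11 at d20, and PSAT1, ASNS and CTH fall to their lowest mean at d7.

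Among the transcription factors, ATF4 itself moved little and mostly downward at d7. ATF4 had normalised read counts of 11086, 11043 and 11547 at d0, 11844, 11828 and 11662 at d1, then 11100.4, 10998 and 11000.1 at d4, 7359, 7313 and 9887 at d7, then 11582, 11978 and 11622 at d10, 12932, 12748 and 13020.1 at d15, and 12441, 13068 and 12644 at d20. The d7 libraries lay below all 18 others, and those of d15 and d20 lay above every d0 library. ATF4 was lower at d7, with a log2 fold change of -0.47 ± 0.070 (SE), adjusted p = 4.7e-06, and the value was -0.61 without the third d7 library. Its higher calls were small, 0.20, adjusted p = 0.0129 at d15, and 0.18, adjusted p = 0.0296 at d20. They did not hold when libraries were rescaled to 1 total, with 0.041, adjusted p = 0.609 at d15 and a turn to -0.020, adjusted p = 0.816 at d20. Quantile normalization gave 0.023, adjusted p = 0.761 at d15 and -0.046, adjusted p = 0.563 at d20. Leaving out 1 library ended the d20 call in 4 of the 6 cases, with adjusted p = 0.0751 without the first d0 library, 0.0786 without the second, 0.0923 without the second d20 library and 0.0561 without the third. After rescaling, ATF4 passed as lower at d4 (-0.222, adjusted p = 0.00885) and d10 (-0.164, adjusted p = 0.0476). It also did so after quantile normalization at d1 (-0.174, adjusted p = 0.0277), d4 (-0.186, adjusted p = 0.0156) and d10 (-0.191, adjusted p = 0.0151). With only the 2 groups compared, it passed as higher at d1 (0.070, adjusted p = 0.0347) and d10 (0.063, adjusted p = 0.0439).

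CEBPB encodes C/EBPβ, a partner of ATF4 at composite sites. CEBPB had normalised read counts of 939, 969 and 847 at d0, 1347, 1189 and 1476 at d1, then 2332, 2155 and 2291 at d4, 2113, 1970.5 and 1572 at d7, then 1257, 1323 and 1166 at d10, 2467, 2523 and 2552 at d15, and 1477, 1330.3 and 1216 at d20. All 18 treated libraries lay above all 3 untreated ones, and d4 and d15 held the highest. The log2 fold change was 1.30 ± 0.091 (SE), adjusted p = 4.17e-11 at d4, and 1.45 ± 0.091 (SE), adjusted p = 4.13e-12 at d15. It was 0.54 at d1, 1.03 at d7, 0.44 at d10 and 0.54 at d20, each past the threshold, and at d7 1.15 without the third d7 library. CEBPG, a C/EBP family member without an activation domain of its own that also pairs with ATF4, changed little. Its timepoint means were 1688 ± 108 at d0, 1789 ± 32.0 at d1, then 1779 ± 6.43 at d4, 1628 ± 9.42 at d7, 1674 ± 21.3 at d10, then 1912 ± 43.3 at d15, and 1554 ± 28.1 at d20 (SD, n = 3), with calls of 0.18, adjusted p = 0.000254 at d15 and -0.12, adjusted p = 0.0131 at d20. The d15 call was lost when libraries were rescaled (0.022, adjusted p = 0.622), and the d20 call without the first d0 library (-0.079, adjusted p = 0.103) or the third (-0.10, adjusted p = 0.0523).

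DDIT3 encodes CHOP, a C/EBP family factor linked to cell death under prolonged stress. DDIT3 had normalised read counts of 380.0, 229.9 and 175 at d0, 132, 149.7 and 141 at d1, then 367, 368 and 344 at d4, 272, 243 and 144 at d7, then 117, 123 and 124 at d10, 421, 408 and 448 at d15, and 135, 137 and 126 at d20. The untreated libraries spread widely, and only those of d15 lay above all of them, while d1, d10 and d20 lay below all of them. DDIT3 was lower at d10, with a log2 fold change of -1.02 ± 0.20 (SE), adjusted p = 0.000125, and higher at d15, with 0.77 ± 0.20 (SE), adjusted p = 0.00154. It was also lower at d1 (-0.82, adjusted p = 0.00149) and d20 (-0.90, adjusted p = 0.00055). Between timepoints without untreated libraries it rose from d1 to d4 by 1.35 ± 0.20 (SE), adjusted p = 6.05e-06, rose from d10 to d15 by 1.80 ± 0.20 (SE), adjusted p = 4.64e-08, and changed from d15 to d20 by -1.67 ± 0.20 (SE), adjusted p = 1.8e-07. The d4 call (0.53, adjusted p = 0.0224) was lost without the second d0 library (0.48, adjusted p = 0.0726), the third d0 library (0.28, adjusted p = 0.204), the first d4 library (0.52, adjusted p = 0.0546) or the second (0.52, adjusted p = 0.0556), and when libraries were rescaled (0.34, adjusted p = 0.139) or tested with edgeR (0.42, adjusted p = 0.0554). Exons of DDIT3 overlap MARS and MBD6 on the opposite strand, and whether reads were counted by strand is not given in the sources used here. MARS had means of 5090 at d0, 5882 at d1, then 4052 at d4, 4047 at d7, 6037 at d10, then 4289 at d15 and 6247 at d20. MBD6 had means of 1138 at d0, 873 at d1, then 1025.5 at d4, 988 at d7, 777 at d10, then 983 at d15 and 758 at d20. Its means at d4 and d15 lay above those at d1, d10 and d20, as did those of DDIT3, while those of MARS lay below. The part of these genes in the DDIT3 values was not tested.

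NUPR1, a small stress-induced chromatin protein, had the widest range of the set, 6.12-fold between timepoint means. NUPR1 had normalised read counts of 1945, 2029 and 1863 at d0, 1672, 1678 and 1640.4 at d1, then 2919, 2951 and 2872 at d4, 4689.8, 4438 and 2586 at d7, then 1034, 1149.5 and 1119.6 at d10, 6699, 6714 and 6798 at d15, and 2125, 2254 and 2235 at d20. The d15 libraries lay above and the d10 libraries below all others, with no overlap. NUPR1 was higher at d15, with a log2 fold change of 1.79 ± 0.13 (SE), adjusted p = 3e-11, lower at d10, with -0.82 ± 0.13 (SE), adjusted p = 7.18e-06, and higher at d4, with 0.58 ± 0.13 (SE), adjusted p = 0.000324. At d7 it was 0.96 ± 0.13 (SE), adjusted p = 1.02e-06, or 1.23 without the third library. The change from d10 to d15 was 2.61 ± 0.13 (SE), adjusted p = 6.54e-14, and that from d15 to d20 was -1.61 ± 0.13 (SE), adjusted p = 2.84e-10.

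TRIB3, a pseudokinase that ATF4 and CHOP induce and that feeds back on both, was highest at d15. TRIB3 had normalised read counts of 3158, 2703 and 2925 at d0, 3727, 3622 and 3808 at d1, then 2873, 2962 and 3158 at d4, 2341, 2169.6 and 3185 at d7, then 3688, 3719.7 and 3538 at d10, 5321, 5723 and 5185 at d15, and 4182, 4260.3 and 4224 at d20. The d15 libraries lay above all others and the d20 libraries above all of the rest. TRIB3 was higher at d15, with a log2 fold change of 0.89 ± 0.089 (SE), adjusted p = 8.74e-09, and at d20, with 0.53 ± 0.089 (SE), adjusted p = 2.32e-05. The calls at d1 (0.35, adjusted p = 0.00201) and d10 (0.32, adjusted p = 0.00319) were lost when libraries were rescaled (0.15 and 0.092). The lower call at d7 (-0.21, adjusted p = 0.0429) was lost without the first d0 library (-0.15, adjusted p = 0.182), the third (-0.21, adjusted p = 0.0827), the first d7 library (-0.15, adjusted p = 0.17) or the second (-0.098, adjusted p = 0.315), while without the third d7 library it was -0.38.

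Of the stress effectors and secreted factors, 5 of 6 were higher at d20, against 32.5% of all genes, and the sixth, DDIT4, was at 0.021, adjusted p = 0.793. DDIT4 passed as lower at d20 after rescaling (-0.18, adjusted p = 0.0209) and after quantile normalization (-0.22, adjusted p = 0.00321). CHAC1, whose promoter stretch is printed above, encodes an enzyme that degrades glutathione. CHAC1 had normalised read counts of 659, 490.2 and 458 at d0, 346, 317 and 380.1 at d1, then 271, 287 and 277 at d4, 359, 348 and 275 at d7, then 366, 413 and 355 at d10, 399.9, 386 and 356 at d15, and 871, 883 and 859.8 at d20. All libraries of d1 to d15 lay below the lowest of d0, and all of d20 lay above the highest. CHAC1 was lower at d4, with a log2 fold change of -0.92 ± 0.11 (SE), adjusted p = 1.89e-07, and higher at d20, with 0.72 ± 0.11 (SE), adjusted p = 8.53e-06. It was also lower on the other days, -0.61 at d1, -0.70 at d7, -0.49 at d10 and -0.47 at d15 (at d7 -0.58 without the third d7 library), and rose from d15 to d20 by 1.19 ± 0.11 (SE), adjusted p = 3.79e-09.

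STC2 encodes stanniocalcin 2, a secreted glycoprotein. STC2 had normalised read counts of 2075, 1554 and 1428 at d0, 1452, 1376 and 1512 at d1, then 1476, 1419.7 and 1477 at d4, 961, 963 and 1375 at d7, then 1918, 1953 and 1796 at d10, 1753, 1961 and 1799 at d15, and 3547, 3746 and 3838 at d20. The d20 libraries stood above all others, and the third d7 library stood close to those of d1 and d4 while the other d7 libraries were lowest. STC2 was higher at d20, with a log2 fold change of 1.16 ± 0.11 (SE), adjusted p = 1.35e-08, and lower at d7, with -0.62 ± 0.11 (SE), adjusted p = 6.48e-05, or -0.79 without the third d7 library. The other 4 days did not pass the test, -0.20 at d1, -0.19 at d4, 0.18 at d10 and 0.14 at d15. All 4 passed once the third d7 library was left out of the fit (adjusted p from 0.00763 to 0.0499). Without the third d0 library, d1 (-0.31, adjusted p = 0.0309) and d4 (-0.30, adjusted p = 0.0302) passed as lower, as they did after rescaling (-0.40 and -0.39) and quantile normalization (-0.31 and -0.28). Without the first d0 library, the highest of the untreated ones, d10 (0.34, adjusted p = 0.00693) and d15 (0.30, adjusted p = 0.013) passed as higher.

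VLDLR encodes the very low density lipoprotein receptor. VLDLR had normalised read counts of 43.6, 33.1 and 23.8 at d0, 101, 93.3 and 92.3 at d1, then 57.8, 69.1 and 90.1 at d4, 66.5, 55.3 and 67.0 at d7, then 84.6, 99.1 and 83.1 at d10, 67.3, 64.2 and 57.0 at d15, and 112, 113 and 130.2 at d20, at a low depth for this set. Every treated library lay above every untreated one. VLDLR was higher at d20, with a log2 fold change of 1.83 ± 0.18 (SE), adjusted p = 1.02e-08, at d1, with 1.53 ± 0.18 (SE), adjusted p = 1.97e-07, and at d10, with 1.42 ± 0.18 (SE), adjusted p = 3.95e-07. It was also higher at the other days, 1.11 at d4, 0.93 at d7 and 0.93 at d15, with 0.88 without the third d7 library at d7.

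SESN2, DDIT4 and VEGFA moved by smaller factors. SESN2, whose protein senses leucine and holds back mTORC1, had means of 731 ± 92.1 at d0, 582 ± 39.3 at d1, then 693 ± 10.9 at d4, 993 ± 250.1 at d7, 557 ± 17.3 at d10, then 1054 ± 52.4 at d15, and 970.0 ± 44.5 at d20 (SD, n = 3). The highest SESN2 calls were 0.53, adjusted p = 0.000472 at d15, 0.41, adjusted p = 0.00506 at d7 (or 0.64 without the third d7 library) and 0.41, adjusted p = 0.0056 at d20, of which d7 and d20 were lost after rescaling (0.22 and 0.21). SESN2 was lower at d10 (-0.39, adjusted p = 0.0081) and d1 (-0.32, adjusted p = 0.0263), calls lost without the first d0 library (-0.28, adjusted p = 0.064 and -0.22, adjusted p = 0.156), and at d1 also without the first (-0.32, adjusted p = 0.0626) or second (-0.28, adjusted p = 0.0926) d1 library. DDIT4 encodes REDD1, another inhibitor of mTORC1. DDIT4 had means of 21241 ± 2525 at d0, 18735 ± 729 at d1, then 20176 ± 220.1 at d4, 16332 ± 1261 at d7, 16705 ± 823 at d10, then 20868 ± 650.3 at d15, and 21462 ± 681 at d20, with lower calls at d7 (-0.38, adjusted p = 3.13e-05, or -0.31 without the third d7 library) and d10 (-0.34, adjusted p = 8.77e-05). Its lower call at d1 (-0.18, adjusted p = 0.0247) was lost without the first d0 library (-0.086, adjusted p = 0.232) or the second d1 library (-0.14, adjusted p = 0.105). After rescaling, DDIT4 also passed as lower at d4 (-0.265, adjusted p = 0.00119) and d15 (-0.179, adjusted p = 0.019). Quantile normalization gave -0.255, adjusted p = 0.000763 at d4 and -0.319, adjusted p = 6.86e-05 at d15. VEGFA, an angiogenic growth factor, had means of 1706 ± 162 at d0, 2948 ± 180.5 at d1, then 2954 ± 181 at d4, 1559 ± 99.0 at d7, 2419 ± 49.0 at d10, then 1857 ± 123 at d15, and 2250.5 ± 81.0 at d20. VEGFA was higher at d1 (0.79, adjusted p = 1.15e-09), d4 (0.79, adjusted p = 6.08e-10), d10 (0.51, adjusted p = 6.81e-07) and d20 (0.40, adjusted p = 1.72e-05), and did not pass at d15 (0.12, adjusted p = 0.0902) or at d7 (-0.13, adjusted p = 0.0934). At d15 it passed as higher without the third d7 library (adjusted p = 0.0257) or without the first d0 library (0.20, adjusted p = 0.0116). At d7 it passed as lower without the third d7 library, without the third d0 library (-0.19, adjusted p = 0.0215), after rescaling (-0.32, adjusted p = 0.000431) and after quantile normalization (-0.20, adjusted p = 0.0136). DDIT4 and VEGFA also respond to hypoxia, and the summed value of 10 hypoxia-inducible genes had means of 21223 at d0, 34470 at d1, then 41013 at d4, 40325 at d7, 26613 at d10, then 41545 at d15 and 29120 at d20. NDRG1 made up most of this sum, with means of 11881 at d0, 25782 at d1, then 32014 at d4 and 31774 at d7. Its means were 18191 at d10, 33259 at d15 and 21396 at d20. CA9, the lowest of the list, went from 1781 at d0 to 49.97 at d15. The median log2 fold change of the 10 genes lay between 0.205 at d20 and 0.351 at d7. The part of the 10 genes in the values of DDIT4 and VEGFA was not tested.

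**Figure D4:**
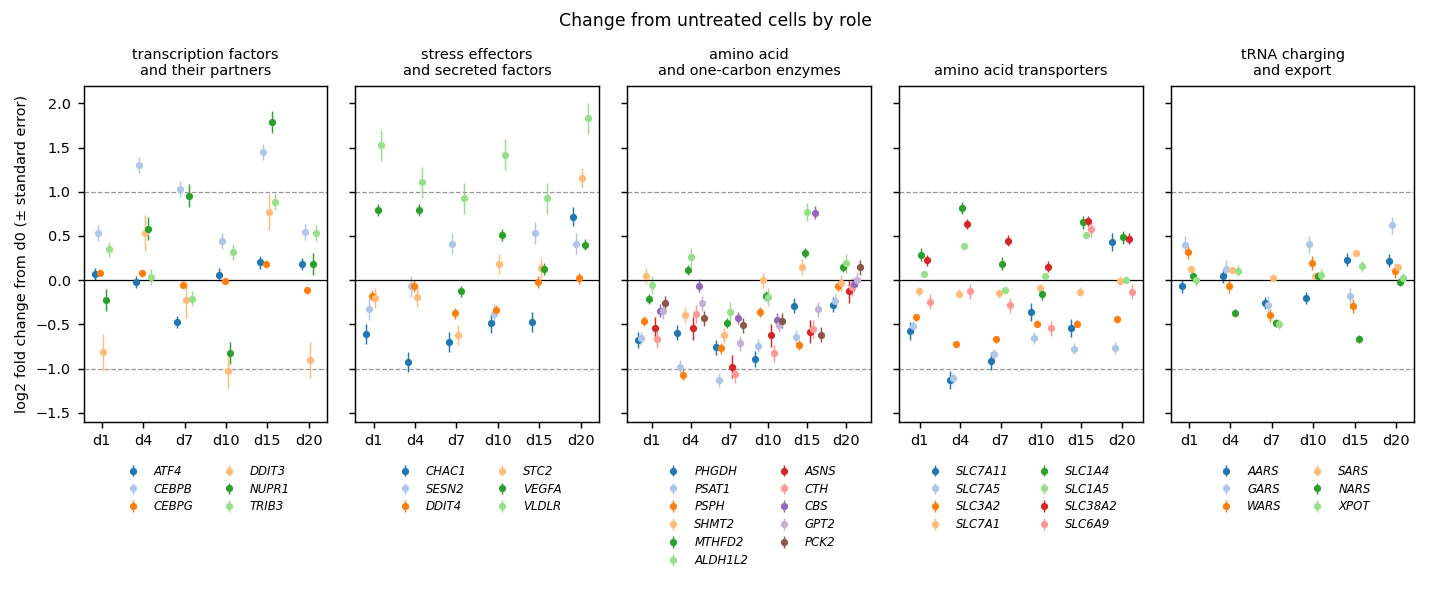
Log2 fold change from d0 (y axis, points, with standard error bars) on each treated day (x axis) for the 37 genes in 5 panels by role. Dashed lines mark 2-fold. Enzymes lie below 0 at d7 in 11 of 11 cases, while VLDLR, CEBPB and NUPR1 reach the highest values in the 2 panels at left.

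The amino acid and one-carbon enzymes were lower on most treated days. Of 11 enzymes, 9 were lower at d1, 8 at d4, then 11 at d7, 9 at d10, then 7 at d15 and 2 at d20, and those higher numbered 0, 1, 0, 0, 3 and 1. The shares of all genes lower on these days were 28.5%, 35.3%, 32.6%, 30.7%, 37.3% and 30.2%. Those higher were 31.3%, 36.9%, 34.6%, 37%, 39.2% and 32.5%. The median log2 fold change of the role was -0.35 at d1, -0.39 at d4, then -0.71 at d7, -0.46 at d10, then -0.33 at d15 and -0.048 at d20. Where 0 were higher with limma, the highest value was that of SHMT2 at d1 (0.044, adjusted p = 0.684), ALDH1L2 at d7 and SHMT2 at d10 (-0.0022, adjusted p = 0.983).

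The 3 enzymes that make serine from a glycolytic intermediate, PHGDH, PSAT1 and PSPH, were highest in untreated cells. PHGDH catalyses the first step, and its means were 6057 ± 10.2 at d0, 3787 ± 135 at d1, then 4013 ± 142 at d4, 3636 ± 839.7 at d7, 3262 ± 43.1 at d10, then 4964 ± 67.4 at d15, and 4995 ± 133 at d20 (SD, n = 3). PHGDH was lower on all 6 days, most at d10, with a log2 fold change of -0.89 ± 0.087 (SE), adjusted p = 1.1e-08, and least at d20, with -0.28 ± 0.087 (SE), adjusted p = 0.00873. PSAT1, the aminotransferase of the second step, had normalised read counts of 6259, 6054 and 6122 at d0, 3842, 3935 and 3895 at d1, then 3118, 3137 and 3099 at d4, 2545, 2524 and 3441 at d7, then 3696, 3793 and 3549.6 at d10, 3789, 4199 and 3812 at d15, and 4891, 5288 and 5490.5 at d20. Every treated library lay below every untreated one. PSAT1 was lower at d7, with a log2 fold change of -1.13 ± 0.077 (SE), adjusted p = 3.69e-11, or -1.28 without the third d7 library, and at d4, with -0.98 ± 0.077 (SE), adjusted p = 2.71e-10. By d20 it was -0.24 ± 0.077 (SE), adjusted p = 0.0112, a call lost without the first d20 library (-0.19, adjusted p = 0.0649). PSPH, the phosphatase of the last step, had normalised read counts of 1022, 953 and 915 at d0, 725, 709.7 and 664 at d1, then 462, 433 and 482 at d4, 557, 553 and 579 at d7, then 734, 791 and 723 at d10, 547, 602 and 588 at d15, and 862, 934 and 962 at d20. The libraries of d1 to d15 lay below all untreated ones, and those of d20 overlapped them. PSPH was lower at d4, with a log2 fold change of -1.07 ± 0.059 (SE), adjusted p = 8.06e-13, and at d15, with -0.73 ± 0.059 (SE), adjusted p = 2.8e-10, and it did not pass at d20, with -0.068 ± 0.059 (SE), adjusted p = 0.33.

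SHMT2, MTHFD2 and ALDH1L2 carry one-carbon units from serine through mitochondrial folate. SHMT2 had means of 7482 ± 119 at d0, 7716 ± 74.6 at d1, then 5699 ± 147 at d4, 4936 ± 1171 at d7, 7474 ± 274 at d10, then 8289 ± 32.3 at d15, and 7325 ± 72.4 at d20 (SD, n = 3), and was lower at d4 (-0.39, adjusted p = 0.000445) and d7 (-0.63, adjusted p = 2.37e-06, or -0.81 without the third d7 library). The other days did not pass as deposited. After rescaling and quantile normalization SHMT2 passed as lower at d10 (-0.23 and -0.28) and d20 (-0.23 and -0.25). Without the third d7 library in the fit it passed as higher at d15 (0.15, adjusted p = 1.2e-05). MTHFD2 had means of 6324 ± 277 at d0, 5459 ± 87.7 at d1, then 6849 ± 216 at d4, 4528 ± 584 at d7, 5564 ± 63.4 at d10, then 7799.7 ± 116 at d15, and 7029 ± 229.8 at d20, lower at d1 (-0.21, adjusted p = 0.00339), d10 (-0.18, adjusted p = 0.00775) and d7 (-0.49, adjusted p = 1.98e-07, or -0.59 without the third d7 library) and higher at d15 (0.30, adjusted p = 6.64e-05). Its d20 call (0.15, adjusted p = 0.0258) turned to -0.047 after rescaling and -0.054 after quantile normalization. ALDH1L2 had normalised read counts of 2019, 1886 and 1899 at d0, 1870.1, 1896 and 1817 at d1, then 2298, 2249 and 2391 at d4, 1279, 1310.5 and 2058 at d7, then 1644, 1695 and 1752 at d10, 3379.6, 3315 and 3223 at d15, and 2141, 2191 and 2287 at d20. The d15 libraries stood above all others, and the third d7 library lay above those of d0 while the other d7 libraries were lowest. ALDH1L2 was higher at d15, with a log2 fold change of 0.77 ± 0.11 (SE), adjusted p = 9.19e-07. It was lower at d7, with -0.36 ± 0.11 (SE), adjusted p = 0.00535, which became -0.23, adjusted p = 0.0501 without the first d7 library and -0.58 without the third. The d4 call (0.26, adjusted p = 0.0335) was lost after rescaling (0.061), after quantile normalization (0.14), and without the second or the third d0 library or the first or the third d4 library (adjusted p from 0.0623 to 0.0932).

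ASNS makes asparagine from aspartate and is a classic ATF4 target, with the motif shown above before its start. ASNS had normalised read counts of 5122, 4838 and 4915 at d0, 3369, 3397 and 3442 at d1, then 3468, 3293 and 3431 at d4, 2069, 2064 and 3705 at d7, then 3151, 3354 and 3144 at d10, 3332, 3354 and 3246 at d15, and 4321, 4621 and 4692 at d20. All libraries of d1 to d20 lay below all untreated ones, and the first and second d7 libraries lay lowest. ASNS was lower at d7, with a log2 fold change of -0.98 ± 0.13 (SE), adjusted p = 9.09e-07, or -1.26 without the third d7 library. It was lower at d1 (-0.54, adjusted p = 0.00107), d4 (-0.55, adjusted p = 0.000736), d10 (-0.62, adjusted p = 0.00021) and d15 (-0.58, adjusted p = 0.000343). At d20 it was -0.13 ± 0.13 (SE), adjusted p = 0.407, which did not pass the test, and it passed once the third d7 library was left out of the fit (adjusted p = 0.000937). Reads of ASNS can be shared with its pseudogenes.

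CBS and CTH follow each other in transsulfuration, the route from homocysteine to cysteine. CBS, the first enzyme, had normalised read counts of 1237, 1276 and 1269 at d0, 997, 962 and 1021 at d1, then 1239, 1162 and 1223 at d4, 851, 857 and 1119.7 at d7, then 902, 921 and 950.5 at d10, 2064, 2239 and 2129.8 at d15, and 1182, 1236 and 1241 at d20. The d15 libraries stood above all others, and the libraries of the remaining treated days lay below the d0 range or overlapped it. CBS was higher at d15, with a log2 fold change of 0.76 ± 0.070 (SE), adjusted p = 2.19e-09, and lower at d10, with -0.45 ± 0.070 (SE), adjusted p = 8.8e-06, at d7, with -0.43 ± 0.070 (SE), adjusted p = 1.49e-05, or -0.56 without the third d7 library, and at d1, with -0.34 ± 0.070 (SE), adjusted p = 0.000252. CTH, the second enzyme, had normalised read counts of 604, 501 and 473 at d0, 325, 294 and 370.2 at d1, then 403, 383 and 418 at d4, 217, 244 and 295 at d7, then 293, 300.3 and 289 at d10, 343, 355 and 376 at d15, and 467, 502 and 523 at d20. Libraries of d1 to d15 lay below all untreated ones, and those of d20 overlapped them. CTH was lower at d7, with a log2 fold change of -1.06 ± 0.10 (SE), adjusted p = 7.85e-09, or -1.18 without the third d7 library, and at d10, with -0.83 ± 0.10 (SE), adjusted p = 2.82e-07. At d15, where CBS was higher, CTH was lower, with -0.55 ± 0.10 (SE), adjusted p = 4.6e-05.

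GPT2 and PCK2 are mitochondrial enzymes that handle alanine and phosphoenolpyruvate. GPT2 had means of 2499 ± 173 at d0, 1952 ± 38.5 at d1, then 2085 ± 35.9 at d4, 1543 ± 324 at d7, 1761 ± 42.2 at d10, then 1983 ± 26.5 at d15, and 2499.9 ± 106 at d20 (SD, n = 3), and was lower on every day from d1 to d15, most at d7 (-0.71, adjusted p = 2.39e-07, or -0.88 without the third d7 library). Without the first d0 library the d4 value (-0.26, adjusted p = 0.00985) became -0.21, adjusted p = 0.0575. PCK2 had means of 2095 ± 84.5 at d0, 1747 ± 13.4 at d1, then 1550.0 ± 33.5 at d4, 1489.6 ± 308 at d7, 1524 ± 130.2 at d10, then 1366 ± 20.7 at d15, and 2314 ± 40.1 at d20, and was also lower from d1 to d15, most at d15 (-0.62, adjusted p = 1.2e-06). At d20 neither passed, with 0.0020, adjusted p = 0.985 for GPT2, and 0.14, adjusted p = 0.148 for PCK2. PCK2 passed as higher at d20 once the third d7 library was left out of the fit (adjusted p = 0.00229).

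The amino acid transporters split by gene. The cystine, leucine and heavy chain genes SLC7A11, SLC7A5 and SLC3A2 were lower on d1 to d15, whereas SLC1A4, SLC1A5 and SLC38A2, which carry small neutral amino acids and glutamine, were higher at d4 and d15. Of the 8 transporters, 4 were higher and 4 lower at d15, against 39.2% and 37.3% of all genes. At d7, 2 were higher and 6 lower, against 34.6% and 32.6%.

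SLC7A11 is the cystine and glutamate exchanger whose import feeds glutathione. SLC7A11 had normalised read counts of 4158, 3668 and 4029 at d0, 2578, 2659 and 2705 at d1, then 1762, 1827 and 1829 at d4, 1789, 1824 and 2788 at d7, then 3049, 3039.5 and 3108 at d10, 2714, 2847 and 2579 at d15, and 5048, 5276 and 5628 at d20. The libraries of d1 to d15 lay below all untreated ones, and those of d20 lay above all of them. SLC7A11 was lower at d4, with a log2 fold change of -1.13 ± 0.10 (SE), adjusted p = 2.79e-09, and at d7, with -0.92 ± 0.10 (SE), adjusted p = 9.37e-08, or -1.13 without the third d7 library. The higher call at d20, 0.43 ± 0.10 (SE), adjusted p = 0.00107, did not pass after rescaling (0.23, adjusted p = 0.0613). An antisense gene, SLC7A11-AS1, overlaps its exons.

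SLC7A5 and SLC3A2 form 1 transporter, LAT1 with its heavy chain, which imports leucine and other large neutral amino acids. SLC7A5 had normalised read counts of 48022, 48447 and 50922 at d0, 33759.8, 33865 and 34825 at d1, then 22733, 23577 and 22010.0 at d4, 26694, 24263 and 31976 at d7, then 31447, 30763 and 31384 at d10, 29795, 28662 and 27671 at d15, and 28905, 29117 and 28508 at d20. Every treated library lay below every untreated one, and the d4 libraries were lowest. SLC7A5 was lower at d4, with a log2 fold change of -1.11 ± 0.063 (SE), adjusted p = 1.21e-12, and at d20, with -0.77 ± 0.063 (SE), adjusted p = 7.5e-10. The other days were -0.52 at d1, -0.84 at d7, -0.65 at d10 and -0.78 at d15, with -0.95 without the third d7 library at d7. SLC3A2 had means of 14314 ± 431 at d0, 10683 ± 233 at d1, then 8657 ± 229 at d4, 8998 ± 558 at d7, 10185 ± 294 at d10, then 10149 ± 116 at d15, and 10517 ± 65.4 at d20 (SD, n = 3), and was lower on all 6 days, most at d4 (-0.73, adjusted p = 5.58e-13) and least at d1 (-0.42, adjusted p = 7.24e-09).

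SLC6A9 is the glycine transporter GLYT1. SLC6A9 had normalised read counts of 716, 631 and 576 at d0, 536, 530.2 and 551 at d1, then 569, 595 and 589 at d4, 494, 471 and 622 at d7, then 414, 459 and 440.0 at d10, 963, 943 and 951 at d15, and 555, 559.9 and 634 at d20. The d15 libraries stood above all others, and those of d10 lay below all others. SLC6A9 was higher at d15, with a log2 fold change of 0.58 ± 0.085 (SE), adjusted p = 2.65e-06, and lower at d10, with -0.55 ± 0.085 (SE), adjusted p = 7.79e-06. The lower calls at d1 (-0.24, adjusted p = 0.0171) and d7 (-0.28, adjusted p = 0.00591, or -0.40 without the third d7 library) were lost without the first d0 library (-0.16, adjusted p = 0.127 and -0.20, adjusted p = 0.0548).

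SLC1A4, a carrier of alanine, serine and cysteine, had means of 396 ± 37.4 at d0, 482 ± 11.4 at d1, then 695 ± 20.3 at d4, 450.4 ± 47.1 at d7, 355 ± 7.37 at d10, then 623 ± 37.4 at d15, and 552 ± 15.7 at d20 (SD, n = 3). It was higher at d4 (0.82, adjusted p = 1.58e-09), d15 (0.65, adjusted p = 3.59e-08) and d20 (0.48, adjusted p = 5.15e-06). The calls at d1 (0.29) and d7 (0.18) were lost after rescaling, with 0.094 and a turn to -0.0060, and the d7 call also without the third d7 library. SLC1A5, the glutamine carrier ASCT2, had means of 8047 ± 125 at d0, 8470.3 ± 233 at d1, then 10494 ± 247 at d4, 7429.6 ± 492 at d7, 8297 ± 57.4 at d10, then 11478 ± 172 at d15, and 8078 ± 63.4 at d20. It was higher at d4 (0.38, adjusted p = 1.02e-08) and d15 (0.51, adjusted p = 6.37e-11), and slightly lower at d7 (-0.12, adjusted p = 0.00972, or -0.096 without the third d7 library), a call lost without the second d7 library (-0.085, adjusted p = 0.0668). After rescaling, SLC1A5 also passed as lower at d1 (-0.120), d10 (-0.183) and d20 (-0.195). Quantile normalization gave -0.144, -0.220 and -0.198 on these days, each also past the threshold. SLC38A2, the sodium-coupled carrier SNAT2, had means of 7714 ± 642 at d0, 8990.1 ± 118 at d1, then 11953 ± 267 at d4, 10533 ± 1123 at d7, 8562 ± 145 at d10, then 12263 ± 217 at d15, and 10667 ± 312 at d20. Its largest values were 0.67, adjusted p = 9.53e-10 at d15 and 0.63, adjusted p = 3.36e-09 at d4. SLC7A1, the importer of arginine and lysine, had the flattest course of the set, with means of 5484 ± 237 at d0, 5024 ± 157 at d1, then 4934 ± 49.9 at d4, 4961 ± 538 at d7, 5144 ± 98.2 at d10, then 5015 ± 156 at d15, and 5465 ± 205 at d20. Its lower calls at d1 (-0.13, adjusted p = 0.0486), d4 (-0.15, adjusted p = 0.0157), d7 (-0.15, adjusted p = 0.0188) and d15 (-0.13, adjusted p = 0.035) were each lost without the first d0 library (adjusted p from 0.0868 to 0.202).

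The genes of tRNA charging and export changed by less than 2-fold on every day. The 5 synthetases charge tRNAs with alanine (AARS), glycine (GARS), tryptophan (WARS), serine (SARS) and asparagine (NARS), and XPOT carries tRNAs out of the nucleus. At d7, 5 of the 6 were lower, against 32.6% of all genes. SARS was at 0.025, adjusted p = 0.532, which turned to -0.17, adjusted p = 0.000192 after rescaling. From d7 to d10, 4 rose and the lowest of the 6 values was 0.017. The median log2 fold change of the role was -0.34 at d7 and 0.12 at d20.

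GARS had means of 6536 ± 133 at d0, 8637 ± 38.5 at d1, then 7161 ± 202 at d4, 5493 ± 1468 at d7, 8658 ± 80.9 at d10, then 5758 ± 153 at d15, and 10038 ± 385 at d20 (SD, n = 3). It was highest at d20, with a log2 fold change of 0.62 ± 0.098 (SE), adjusted p = 1.25e-05, and was called higher at d1 (0.40, adjusted p = 0.00139) and d10 (0.41, adjusted p = 0.00102), of which neither held after rescaling (0.21 and 0.18). The lower call of GARS at d7 (-0.28, adjusted p = 0.0153) was lost without the first d7 library (-0.20, adjusted p = 0.097), without the second (-0.16, adjusted p = 0.14) and with only the 2 groups compared (adjusted p = 0.165), and it was -0.49 without the third d7 library. NARS had means of 5097 ± 52.9 at d0, 5249.7 ± 74.5 at d1, then 3945 ± 119 at d4, 3649 ± 312 at d7, 5266 ± 61.9 at d10, then 3204 ± 79.2 at d15, and 5021 ± 179 at d20, and was lower at d15 (-0.67, adjusted p = 1.18e-11), d7 (-0.49, adjusted p = 4.98e-09, or -0.55 without the third d7 library) and d4 (-0.37, adjusted p = 2.13e-07). After rescaling, NARS also passed as lower at d1 (-0.151), d10 (-0.180) and d20 (-0.222). Quantile normalization gave -0.126, -0.166 and -0.173 on these days, each also past the threshold. WARS had means of 3377 ± 25.2 at d0, 4212 ± 25.0 at d1, then 3228 ± 74.1 at d4, 2594 ± 536 at d7, 3850.0 ± 49.4 at d10, then 2756 ± 89.2 at d15, and 3623 ± 63.1 at d20, lower at d7 (-0.40, adjusted p = 0.000138, or -0.56 without the third d7 library) and at d15 (-0.29, adjusted p = 0.00205). Its higher call at d1 (0.32, adjusted p = 0.00154) was lost after rescaling (0.12), and that at d10 (0.19, adjusted p = 0.0391) turned to -0.038. The highest mean was at d20 for GARS and at d1 for WARS, and that of NARS lay at d10 within the spread of d1.

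AARS, with its stretch shown above, had means of 5470.3 ± 148 at d0, 5218 ± 118 at d1, then 5637 ± 85.2 at d4, 4623 ± 869.8 at d7, 4754 ± 101 at d10, then 6430.5 ± 52.6 at d15, and 6378 ± 60.8 at d20 (SD, n = 3). AARS was lower at d7 (-0.26, adjusted p = 0.00356, or -0.41 without the third d7 library) and d10 (-0.20, adjusted p = 0.0179), where the d10 call was lost without the first d0 library (-0.19, adjusted p = 0.0577) or the first d10 library (-0.18, adjusted p = 0.0596). It was higher at d15 (0.23, adjusted p = 0.0062) and d20 (0.22, adjusted p = 0.0113), which became 0.074 and 0.022 after rescaling and no longer passed. SARS had means of 5984 ± 28.9 at d0, 6533 ± 147 at d1, then 6482 ± 195 at d4, 6089.9 ± 234 at d7, 6160.3 ± 24.9 at d10, then 7401 ± 76.8 at d15, and 6618 ± 205 at d20, and its d15 value was 0.31, adjusted p = 3.88e-08. SARS calls at d1 (0.13), d4 (0.11) and d20 (0.14) turned to -0.067, -0.082 and -0.055 after rescaling. XPOT had means of 5824 ± 117 at d0, 5812 ± 43.7 at d1, then 6266 ± 101 at d4, 4156 ± 627 at d7, 6076 ± 99.7 at d10, then 6483 ± 71.7 at d15, and 5914 ± 197 at d20, lower at d7 (-0.50, adjusted p = 3.67e-07, or -0.62 without the third d7 library). Its d15 call (0.15, adjusted p = 0.0266) turned to -0.0050 after rescaling.

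Other genes of the pathway were read from lists of fixed membership. Of 16 genes of the integrated stress response machinery, which hold the eIF2 kinases, eIF2B subunits and phosphatase partners, 8 were higher and 4 lower at d4, 5 and 8 at d7, then 10 and 2 at d10, then 6 and 8 at d15, and 8 and 2 at d20. Of all genes tested, 36.9% were higher and 35.3% lower at d4, and 34.6% and 32.6% at d7. The shares were 37% and 30.7% at d10, 39.2% and 37.3% at d15, and 32.5% and 30.2% at d20. Rescaling each library to 1 total turned the split at d4 to 4 and 8 and that at d20 to 3 and 7, and made it 4 and 4 at d10. PPP1R15A, the GADD34 subunit that returns eIF2 to its active form and an ATF4 target outside the 37, was the highest of the list, with means of 517 at d0, 589 at d1, then 1409 at d4, 859 at d7, 546 at d10, then 1647 at d15, and 629 at d20. Its log2 fold change was 1.45 at d4, 0.73 at d7 and 1.68 at d15, each past the threshold, and it was highest on d4 and d15, as DDIT3 was. ATF3 was higher at d4 (0.79), d7 (0.74), d15 (1.11) and d20 (0.47) and lower at d10 (-0.63). ATF5 was lower at d4 (-0.42), d7 (-0.19) and d15 (-0.53) and higher at d10 (0.24). The lowest of the list, EIF2B3, a subunit of the eIF2B exchange factor, had values of -0.60 at d4, -0.61 at d7 and -0.83 at d15, each past the threshold.

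Of 25 other one-carbon and amino acid enzymes, 19 were lower and 2 higher at d7, and 15 lower and 6 higher at d15. Of all genes tested, 32.6% were lower and 34.6% higher at d7, and 37.3% lower and 39.2% higher at d15. GLDC, the glycine cleavage enzyme, was the lowest, with means of 237 at d0, 54.1 at d1, then 15.4 at d7, 11.7 at d15, and 37.6 at d20, and it passed on all 6 treated days. Of 16 other amino acid transporters tested, 12 were higher and 3 lower at d10, against 37% and 30.7% of all genes. SLC7A8, the LAT2 light chain, had means of 1658 at d0, 858 at d1, then 1114 at d4, 2021 at d7, 427 at d10, then 1416 at d15, and 612 at d20, and SLC38A5, the highest of the list, was near the filter with 3.79 at d0, 15.7 at d1, then 12.7 at d4, 17.9 at d7, 13.4 at d10, then 12.4 at d15, and 7.13 at d20.

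Of 15 other cytosolic tRNA synthetases, 13 were lower at d7 and the other 2 were not called, 9 were higher and 2 lower at d10, and 12 were lower and 1 higher at d15. Of all genes tested, 32.6% were lower at d7, 37% higher and 30.7% lower at d10, and 37.3% lower and 39.2% higher at d15. After rescaling, 15 were lower at d7, 6 higher and 4 lower at d10, and 13 lower and 1 higher at d15. CARS was the highest, with 0.53 at d20, past the threshold, and IARS the lowest, with -0.60 at d4, -0.74 at d7 and -0.47 at d15. Of 17 mitochondrial synthetases, 13 were lower at d4, 13 at d7 and 14 at d15, with 2, 1 and 2 higher. The shares of all genes lower on these days were 35.3%, 32.6% and 37.3%, and those higher 36.9%, 34.6% and 39.2%. RARS2 was the highest of this list, with at most 0.28 at d4.

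The other branches of the unfolded protein response, run by the sensors IRE1 and ATF6, had a higher median than the 37 genes on every treated day. Both medians were lowest at d7 and highest at d15. Of 15 genes, 13, 11, 8, 11, 13 and 10 were higher on the treated days in order, from d1 to d20. The shares of all genes were 31.3%, 36.9%, 34.6%, 37%, 39.2% and 32.5%. Lower genes numbered 1, 1, 0, 2, 0 and 0, against 28.5%, 35.3%, 32.6%, 30.7%, 37.3% and 30.2%. After rescaling, 9, 11, 4, 10, 9 and 9 were higher, with 3, 3, 6, 5, 2 and 3 lower. The median log2 fold change was 0.485 at d1, 0.495 at d4 and 0.144 at d7. It was 0.426 at d10, 0.640 at d15 and 0.402 at d20. DNAJB9, an IRE1 target, was the highest, with means of 159 at d0, 338 at d1, then 663 at d4, 301 at d7, 337 at d10, then 685 at d15, and 325 at d20, and ATF6 the lowest, with means of 1460.1 at d0, 1272 at d1, then 1387 at d4, 1522 at d7, 1303 at d10, then 1440.0 at d15, and 1445 at d20. HSPA5, the chaperone BiP, rose from 10590.1 at d0 to 24220.2 at d1, with a log2 fold change of 1.19, and its means were 20842 at d4, then 12376 at d7, 21242 at d10, then 21458 at d15 and 17856 at d20. All 6 days passed, of which d7 was lost after rescaling.

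The summed value of the 15 cell cycle genes had means of 82109 at d0, 70253 at d1, then 47099 at d4, 57586 at d7, 77351 at d10, then 24725 at d15 and 76834 at d20. All 15 were lower at d4, d7 and d15, by a median log2 fold change of -0.81, -0.61 and -1.82, with MCM2 from 4048 at d0 to 672 at d15 and AURKB from 938 to 365. The shares of all genes lower on these days were 35.3%, 32.6% and 37.3%. At d1, 7 were lower, against 28.5% of all genes, and at d10, 3 were lower and 2 higher, against 30.7% and 37%. The 10 hypoxia-inducible genes held both directions, with NDRG1 higher at 33259 and CA9 lower at 49.97 at d15, from 11881 and 1781 at d0. The part of cell cycle and hypoxia genes in the values of the 37 genes was not tested.

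**Figure D5:**
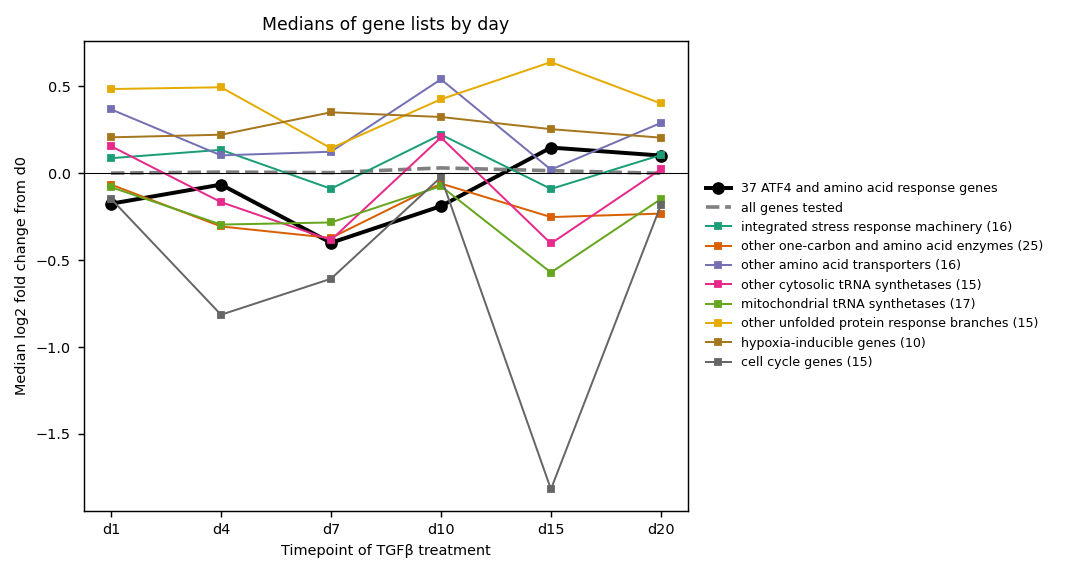
Median log2 fold change from d0 (y axis) on each treated day (x axis) for the 37 genes (thick black line), all genes tested (dashed grey) and 8 other lists with the number of genes tested. The 37 genes run from -0.40 at d7 to 0.15 at d15, where the cell cycle list is at -1.82 and the other unfolded protein response branches at 0.64.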

How the data were processed

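RNA-seq libraries of HMLE cells were used at 7 timepoints with 3 libraries each. The authors deposited 1 normalised signal per gene symbol and library, which is the reads of the gene divided by 1 size factor per library and rounded to 2 decimals. Whole reads were recovered for 100% of values within 0.1 of a read, with 18847917 to 22667754 reads per library. The submitters' processing notes name STAR 2.7, Salmon 1.4 and the build hg19, with no role given, and the counting strand is not given in the sources used here. Fold changes were fitted on log2(value + 1) in R 4.3.3 by limma 3.58.1 (1 mean per timepoint, eBayes with a trend) for the 13343 genes with a mean of at least 10, with Benjamini-Hochberg adjustment per contrast and a threshold of 0.05, and a second rule adding an absolute log2 fold change of 1. This scale understates changes of low genes. P-values rest on the spread between libraries of a timepoint, pooled for each gene over all 7 timepoints. The difference of the third d7 library thus enters the p-values of every day.

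All 37 genes were named. Every library's value was given for ATF4, DDIT3, ASNS, TRIB3 and CHAC1 and the 12 others with the largest ratio of timepoint means, and of each other list the genes with the highest and lowest mean log2 fold change over the 6 treated days, some of which are not reported here. PPP1R15A, ATF3, ATF5 and HSPA5, and partners on the opposite strand, were named outside this rule where a result touched them. The 37 genes and the lists were chosen with earlier results of these data known.

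Alternatives were a pseudocount of 10, no filter, rescaling to 1 total, quantile normalization, only the 2 groups compared, edgeR 4.0.16 (quasi-likelihood test with TMM) and DESeq2 1.42.0 on recovered reads, and each library left out in turn. Leaving the third d7 library out of contrasts without d7 was added after seeing the data. On simulated data with 200 of 13013 genes changed in the d1 comparison, limma called 195 of them (97.5%) and 9 unchanged genes, edgeR 195 and 9, and DESeq2 191 (95.5%) and 10. Named pseudogenes in GENCODE 29 could share reads with 11 of the 37 genes (AARS, ASNS, ATF4, GARS, MTHFD2, NARS, PSAT1, PSPH, SLC7A5, WARS and XPOT), and 14 have exons that overlap a gene on the opposite strand. Python 3.11.15 and its matplotlib 3.10.9 made the figures.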

Additional observations from a re-analysis of the deposited data

Results flagged for a closer look

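Among the genes called higher than in untreated cells on a given day and lower on another, 9 (24.3% of the 37) differed by at least 2-fold between their highest and lowest called days, against 12.6% of all genes tested. These differences chose the genes and are given as a description, with no test. From d10 to d15 the log2 difference was 2.61 for NUPR1, 1.80 for DDIT3, 1.21 for CBS and 1.12 for SLC6A9. NUPR1 was at 1.79 at d15 and -0.82 at d10 against d0, DDIT3 at 0.77 and -1.02, CBS at 0.76 and -0.45, and SLC6A9 at 0.58 and -0.55.

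From d7 to d15 the difference was 1.095 for TRIB3 and 1.13 for ALDH1L2, and from d7 to d20 it was 1.77 for STC2. The third d7 library read 3185 for TRIB3, 2058 for ALDH1L2 and 1375 for STC2, each nearer to the d0 libraries than the other d7 libraries were. From d4 to d20 the difference was 1.64 for CHAC1 and 1.56 for SLC7A11. CHAC1 was at -0.92 at d4 and 0.72 at d20 against d0, and SLC7A11 at -1.13 and 0.43.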

How the results depend on the processing

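No paired analysis was possible because the deposited columns carry no replicate numbers. Of 34 counts of called genes, 468 values were recomputed and 423 stayed within 1.5 times the count reported. Rescaling each library to 1 total gave 3 genes higher at d1, 22 lower at d4, 3 higher and 29 lower at d10, and 9 higher and 17 lower at d20, and by 2-fold it gave 1 lower at d1, then 1 higher and 5 lower at d4, 0 higher and 5 lower at d7, 4 lower at d10, 1 higher and 1 lower at d20, and 1 higher from d15 to d20. Quantile normalization gave 5 higher at d1, 3 higher at d10 and 12 lower at d20, and by 2-fold 0 higher and 4 lower at d7, 2 lower at d10, 1 lower at d15 and 1 lower at d20. A pseudocount of 10 gave by 2-fold 1 higher at d4 and 0 lower at d10, DESeq2 gave 2 higher at d7, and edgeR gave 1 lower at d20. The cause of these shifts was not tested.

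Leaving out 1 library at a time, the numbers changed by 2-fold ranged from 0 to 1 lower at d1, 1 to 2 higher at d4, 0 to 2 higher and 1 to 4 lower at d7, 0 to 1 lower at d10, 2 to 4 higher at d15, 0 to 1 lower at d20, 1 to 3 lower from d7 to d10, and 1 to 3 higher from d15 to d20. Counts moved by over 1.5 times without the third d0 library (1 lower at d1, 1 higher at d4, 0 higher at d7, 1 lower at d20), the first d0 library (2 higher and 1 lower at d7, 0 lower at d10, 4 higher at d15), the third d4 library (1 higher at d4), the first d7 library (0 higher and 1 lower at d7), the third d7 library (2 higher and 4 lower at d7, 3 lower from d7 to d10) and the first d10 library (0 lower at d10). From d15 to d20, 1 was higher without the first or the third d15 library or the third d20 library. Of 3071 values of single genes against d0 under the alternatives, 2810 kept their direction and side of the threshold, 111 no longer passed, 110 newly passed and 40 turned, 22 of these after rescaling and 18 after quantile normalization. Depth limits VLDLR more than the other genes, since it had the fewest reads of the 37, down to 24 in a library.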
